A study of Mus musculus with 6 samples.

Results

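Expression levels of 10 genes of insulin signalling, FoxO control and muscle protein breakdown were examined in isolated adult mouse cardiomyocytes (CMs). The genes were taken by symbol: the insulin receptor gene Insr, the receptor substrates Irs1 and Irs2, the kinases Akt1 and Akt2, the transcription factors Foxo1, Foxo3 and Klf15, and the ubiquitin ligases Fbxo32 and Trim63. All 10 were found among the 16448 genes of the RNA-sequencing table. The table holds 3 CtrlCre samples (αMHC-Cre pos/+;Cpt1b+/+) and 3 Cpt1bcKO samples (αMHC-Cre pos/+;Cpt1b fl/fl) of C57BL/6 mice aged 8 to 12 weeks. Both groups carried the αMHC-Cre transgene, in which the Myh6 promoter drives Cre in CMs from embryonic stages onwards, and the groups therefore differed in the floxed alleles of Cpt1b, the gene for the muscle isoform of carnitine palmitoyltransferase 1 that lets long-chain fatty acids enter mitochondria. CMs were isolated enzymatically from the ventricles. The medium given for isolated adult CMs in the study's methods held an insulin supplement, and whether the cells used for RNA were kept in it is not given in the sources used here.

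Insulin binding activates its receptor, which phosphorylates the IRS adaptor proteins. These recruit phosphoinositide 3-kinase (PI3K), and the lipid it produces brings AKT to the membrane, where AKT is activated. AKT phosphorylates FoxO factors and thereby keeps them out of the nucleus. In fasting or disuse, nuclear FoxO switches on atrogin-1 (Fbxo32) and MuRF1 (Trim63), ligases that mark muscle proteins for the proteasome, while KLF15 is a glucocorticoid-induced factor of amino acid and lipid use in the heart. Much of this pathway is controlled by phosphorylation and location of proteins, neither of which RNA sequencing measures.

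To show where FoxO could be looked for in these genes, the stretches before the transcription starts were read. RefSeq promoter sequences (GRCm38.p6) were matched for 8 of the 10 genes, all but Insr and Fbxo32. They gave 12 windows of 300 bases with 250 before and 50 after a start. The letters GTAAACA, bound by FoxO and other forkhead proteins, were searched on both strands and occur in 3.65% of 32851 windows of the same length. Among the members they were found before Trim63, 194 bases upstream of the start, and before the first Akt1 start, 161 bases upstream. The coordinates given with the Akt1 counts begin at the second start (chr12:112674276), whose window held no match. The windows of Pik3r1 and Mtor, also described below, and of the second Bcl2l11 start held no match. Bcl2l11, described below among the FoxO targets, had the letters 227 bases upstream of its first start. The 250 bases before each start with a match are printed in the direction of the gene, 5′ to 3′. The match is in capitals (TGTTTAC where it lies on the opposite strand). These stretches are, for Trim63, chr4:134314870-134315119 on the plus strand, for Akt1, chr12:112674885-112675134 on the minus strand and, for Bcl2l11, chr2:128125788-128126037 on the plus strand.
Trim63: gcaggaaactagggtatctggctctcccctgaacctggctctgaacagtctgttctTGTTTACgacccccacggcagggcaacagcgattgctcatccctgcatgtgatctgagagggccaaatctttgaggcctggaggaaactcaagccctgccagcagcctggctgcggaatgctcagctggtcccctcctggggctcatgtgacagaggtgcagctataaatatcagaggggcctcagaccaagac
Akt1: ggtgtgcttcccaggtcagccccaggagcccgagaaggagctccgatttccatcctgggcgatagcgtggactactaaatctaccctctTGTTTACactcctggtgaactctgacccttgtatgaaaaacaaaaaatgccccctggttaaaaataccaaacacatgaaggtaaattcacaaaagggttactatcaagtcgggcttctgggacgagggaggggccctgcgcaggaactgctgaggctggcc
Bcl2l11: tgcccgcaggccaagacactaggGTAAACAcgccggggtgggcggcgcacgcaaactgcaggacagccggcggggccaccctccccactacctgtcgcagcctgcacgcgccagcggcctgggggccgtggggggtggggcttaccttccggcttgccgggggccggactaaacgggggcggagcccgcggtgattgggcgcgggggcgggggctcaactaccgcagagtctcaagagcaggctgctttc

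The adaptor genes shared other letters, which were not used to choose the genes. This pair of motifs was picked out after the matches were seen, so its share of windows is a description only. The E-box CACGTG was found in 7.15% of all windows, the insulin response letters CAAAACA in 6.28%, and both in the same window in 0.408%. Irs1 and Irs2 each held both, with CAAAACA on the opposite strand. In Irs1 the E-box starts 115 bases before the transcription start and overlaps one CAAAACA match, and a second CAAAACA match lies 32 bases before the start. In Irs2 the E-box starts 44 bases before the transcription start, with CAAAACA close behind it. The coordinates given with the Irs2 counts begin at chr8:11008458, downstream of the window searched (chr8:11008880-11009179). Stretches of 60 bases around each E-box and the CAAAACA match nearest to it, on the minus strand at chr1:82291515-82291574 for Irs1 and chr8:11008934-11008993 for Irs2, show the arrangement, with both motifs in capitals.
Irs1: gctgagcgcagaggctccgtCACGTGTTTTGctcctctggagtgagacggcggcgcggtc
Irs2: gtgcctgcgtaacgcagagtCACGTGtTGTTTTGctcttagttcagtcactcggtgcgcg
Klf15 carried the E-box in its window as well, at 228, 172 and 3 bases before the start. The full palindromic glucocorticoid response element was in 0.00913% of windows and in none of the members' windows. A match describes letters only and no binding was measured.

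Values are read counts divided by a size factor per sample and rounded to whole numbers, called normalized counts here. Their sum was between 13393411 and 31722217 per sample. The mitochondrial rRNA gene mt-Rnr2 held between 61.8% and 64.6% of it in CtrlCre and Cpt1bcKO 1, but 72.6% in Cpt1bcKO 2 and 80.8% in Cpt1bcKO 3, leaving between 3146414 and 3551692 outside mitochondrial-encoded and rRNA genes. Cpt1b was at 1861, 893 and 1443 in CtrlCre 1, 2 and 3 and at 211, 353 and 285 in Cpt1bcKO 1, 2 and 3, a log2 fold change of −2.27 (limma, adjusted p = 0.00338). The groups did not overlap, and the targeted gene was low in the 3 libraries labelled Cpt1bcKO. All 8 cardiomyocyte markers were present in every library, and their summed level was between 504993 and 613757 in CtrlCre and between 317925 and 552437 in Cpt1bcKO. The adipocyte markers Adipoq, Plin1, Cidec, Retn and Lep are not in the table.

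Differences were tested with limma on log2(normalized count + 1) in the 11364 genes that reached 10 in 3 or more samples, with Benjamini-Hochberg adjustment over all of them. Of the 10 members, 10 passed this filter and 0 were called at an adjusted p below 0.05, against 1.57% of all genes tested. At an unadjusted p below 0.05 the count was 1 (Foxo3), against 13.9% of all genes. In 1 member (Akt1) the values of the groups did not overlap, lower in Cpt1bcKO, against 18.7% of all genes, 9.13% higher and 9.6% lower. Log2 fold changes (Cpt1bcKO minus CtrlCre) were below 0 in 8 of 10 members, with a median of −0.25, whereas the median of all genes was 0.00 and 50.2% of them were below 0. When samples were instead scaled to their total outside mitochondrial-encoded and rRNA genes, the median over all genes tested moved to 0.11. That of the members moved to −0.13, and 7 of 10 members were below 0. The genes with an unadjusted p below 0.05 then split into 1221 higher and 505 lower, against 757 higher and 821 lower with the deposited scaling. The study describes its replicates as mice, although the labels tie no sample to a named animal, and the p-values measure the spread between these samples. In bulk RNA, fewer cells of a type and less RNA per cell cannot be told apart.

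**Figure D1:**
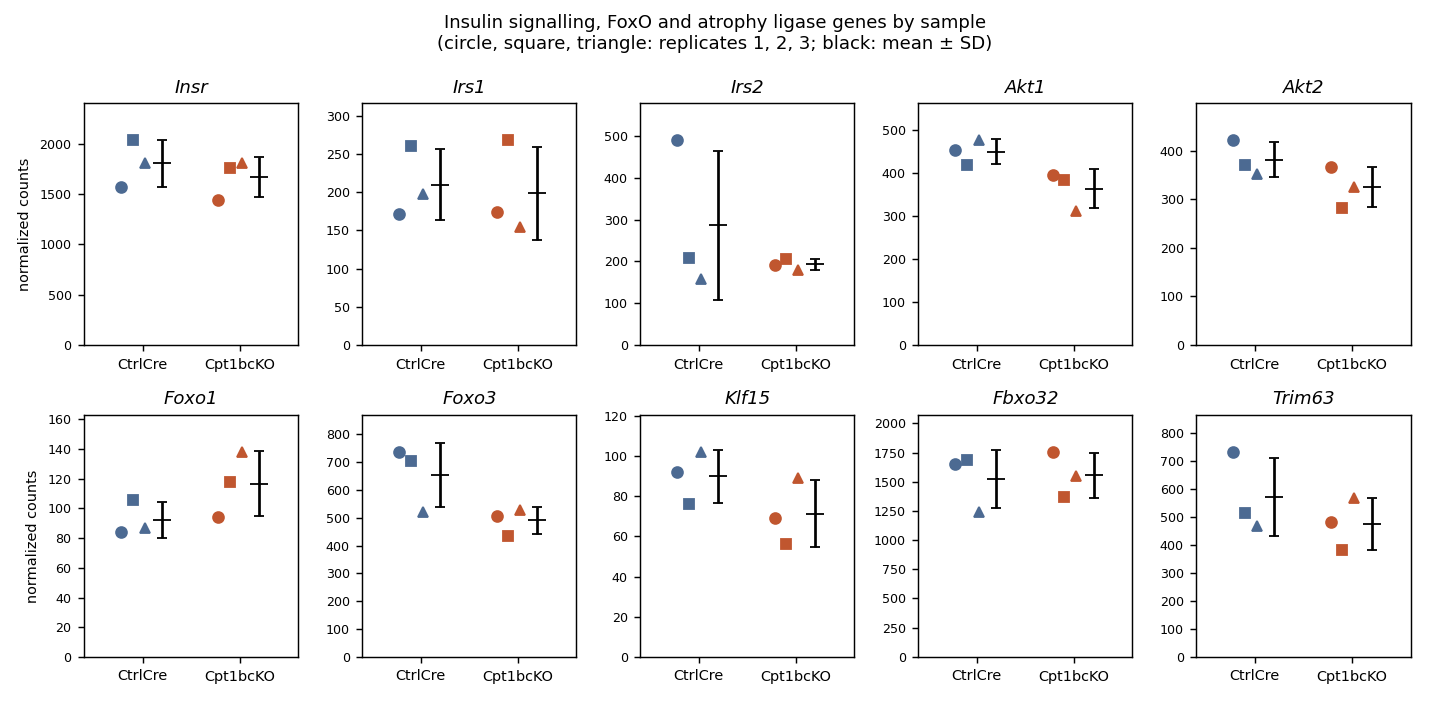
Normalized counts (vertical axes, starting at 0) of the 10 members in 3 CtrlCre (blue) and 3 Cpt1bcKO (orange) samples. Circles, squares and triangles are replicates 1, 2 and 3, and black marks give the mean ± SD of each group. Only in the Akt1 panel do the groups not overlap, and the high Irs2 value of 490 belongs to CtrlCre 1.

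At the top of the pathway, the RNA of the insulin receptor was abundant in both groups. Insr (GRCm38 chr8:3150922-3279617, minus strand) was at 1576, 2037 and 1809 normalized counts in CtrlCre and at 1442, 1763 and 1807 in Cpt1bcKO. The ranges overlapped, with the highest sample in CtrlCre and the lowest in Cpt1bcKO. The mean was 1807 ± 231 (SD, n = 3) in CtrlCre and 1671 ± 199 in Cpt1bcKO, and the log2 fold change was −0.11 (95% confidence interval −0.45 to 0.23, limma adjusted p = 0.792). As a ratio, the interval runs from 0.731 to 1.17.

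The adaptors IRS1 and IRS2 link the receptor to PI3K, and in the heart both take part in insulin signalling. Irs1 (chr1:82233101-82291416, minus strand) was at 172, 261 and 197 in CtrlCre and at 174, 268 and 154 in Cpt1bcKO. Each group spanned nearly the same range, with replicate 2 the highest in both. Its log2 fold change was −0.10 (95% confidence interval −0.63 to 0.43, limma adjusted p = 0.890). Annotated genes on the opposite strand share exon sequence with 4 members, Gm9747 with Irs1, 9530052E02Rik with Irs2, Gm20402 with Foxo1 and Gm15943 with Fbxo32. Whether the counting used strand is not given in the sources used here, so reads of these pairs may not be separated.

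Relative to its level, Irs2 differed between libraries more than any other member did. This gene (chr8:10984681-11008458, minus strand) was at 490, 209 and 159 in CtrlCre and at 192, 206 and 180 in Cpt1bcKO. The value in CtrlCre 1 stood far above the other 5, which lay between 159 and 209. Across all 6 samples the log2 fold change was −0.40 (95% confidence interval −1.15 to 0.35, limma adjusted p = 0.651), and without CtrlCre 1 it was 0.08 (adjusted p = 0.926). Without CtrlCre 3 it was −0.73, with an unadjusted limma p of 0.0465. CtrlCre 1 also had the lowest summed endothelial markers (1221 against 2132 to 2498 in the other 5 libraries) and pericyte and smooth muscle markers (564 against 1067 to 1899). It was 1 of 2 libraries rich in Xist, the RNA of the inactive X chromosome of females, at 957, with Cpt1bcKO 1 at 1080 and the others between 23 and 78. The part of these differences in the Irs2 value was not tested.

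AKT1 and AKT2 carry the signal onwards, AKT2 being the isoform best known for glucose uptake. Akt1 (chr12:112653821-112674276, minus strand) was at 453, 418 and 476 in CtrlCre and at 396, 383 and 312 in Cpt1bcKO. Every Cpt1bcKO sample lay below every CtrlCre sample, a gap of 418 against 396 at its narrowest, which was lost when samples were scaled to their total outside mitochondrial-encoded and rRNA genes (log2 fold change −0.20). The mean was 449 ± 29.2 (SD, n = 3) in CtrlCre and 364 ± 45.2 in Cpt1bcKO, with a log2 fold change of −0.31 (95% confidence interval −0.65 to 0.03, limma adjusted p = 0.404). Without Cpt1bcKO 1 it was −0.37, with an unadjusted limma p of 0.0451. It was −0.20 without Cpt1bcKO 3, with an unadjusted limma p of 0.227. The exact two-sided permutation test over all samples gave p = 0.10, the smallest that 3 samples against 3 allow.

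Akt2 (chr7:27591552-27640826, plus strand) was at 422, 370 and 353 in CtrlCre and at 366, 283 and 326 in Cpt1bcKO. The groups overlapped through Cpt1bcKO 1, which lay above CtrlCre 3. The log2 fold change was −0.23 (95% confidence interval −0.59 to 0.12, limma adjusted p = 0.558).

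FOXO1 and FOXO3 are the main FoxO factors of muscle, and FOXO3 in particular can by itself switch on the atrophy ligases. Foxo3 (chr10:42181841-42276755, minus strand) was at 736, 704 and 521 in CtrlCre and at 508, 434 and 529 in Cpt1bcKO. The groups overlapped only because Cpt1bcKO 3 lay slightly above CtrlCre 3. The mean was 654 ± 116 (SD, n = 3) in CtrlCre and 490 ± 49.9 in Cpt1bcKO, a ratio of 0.756 on the log2(normalized count + 1) scale (95% confidence interval 0.582 to 0.982). The log2 fold change was −0.40, with an unadjusted p of 0.0384 and an adjusted p of 0.324 by limma. The unadjusted p was 0.124 without CtrlCre 1, 0.125 without CtrlCre 2 and 0.141 without Cpt1bcKO 2 (limma), with log2 fold changes of −0.31, −0.34 and −0.32.

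Foxo1 had the lower counts of this pair and its difference had the other sign. It lies at chr3:52268336-52353221 on the plus strand and was at 84, 106 and 87 in CtrlCre and at 94, 118 and 138 in Cpt1bcKO. The highest values were those of Cpt1bcKO 3 and Cpt1bcKO 2, whereas Cpt1bcKO 1 lay within the CtrlCre range. Cpt1bcKO 2 and 3 were also the libraries with the largest mt-Rnr2 shares, and the part of this in the Foxo1 values was not tested. The log2 fold change was 0.32 (95% confidence interval −0.14 to 0.79, limma adjusted p = 0.534), and ranged from 0.20 without Cpt1bcKO 3 to 0.47 without Cpt1bcKO 1.

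KLF15 acts beside the FoxO factors on branched-chain amino acid breakdown and has been described as a brake on cardiac growth. Klf15 (chr6:90462576-90475238, plus strand) was at 92, 76 and 102 in CtrlCre and at 69, 56 and 89 in Cpt1bcKO. The lowest values, 56 and 69, were both in Cpt1bcKO, while Cpt1bcKO 3 lay among the CtrlCre samples. The log2 fold change was −0.35 (95% confidence interval −0.86 to 0.17, limma adjusted p = 0.554), and ranged from −0.52 without Cpt1bcKO 3 to −0.19 without Cpt1bcKO 2.

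The ubiquitin ligase genes are the usual transcript readout of FoxO activity in muscle. Fbxo32 (chr15:58175879-58214892, minus strand), encoding atrogin-1, was at 1650, 1690 and 1242 in CtrlCre and at 1754, 1369 and 1550 in Cpt1bcKO. The extremes of the 6 samples came from both groups, the lowest from CtrlCre 3 and the highest from Cpt1bcKO 1. The mean was 1527 ± 248 (SD, n = 3) in CtrlCre and 1558 ± 193 in Cpt1bcKO, and the log2 fold change was 0.04 (95% confidence interval −0.33 to 0.40, limma adjusted p = 0.952). On the ratio scale the interval of 0.796 to 1.32 leaves room for moderate differences in either direction.

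Trim63 (chr4:134315120-134329629, plus strand), encoding MuRF1, was at 731, 514 and 468 in CtrlCre and at 481, 380 and 566 in Cpt1bcKO. The highest value was CtrlCre 1 and the lowest Cpt1bcKO 2, with the other 4 interleaved. The log2 fold change was −0.26 (95% confidence interval −0.71 to 0.20, limma adjusted p = 0.631). Without CtrlCre 1 it was −0.06. Akt1 and Trim63, the members found with forkhead letters before a start, both had confidence intervals that reach 0, like every member but Foxo3. Insr and Fbxo32 were not searched for these letters.

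**Figure D2:**
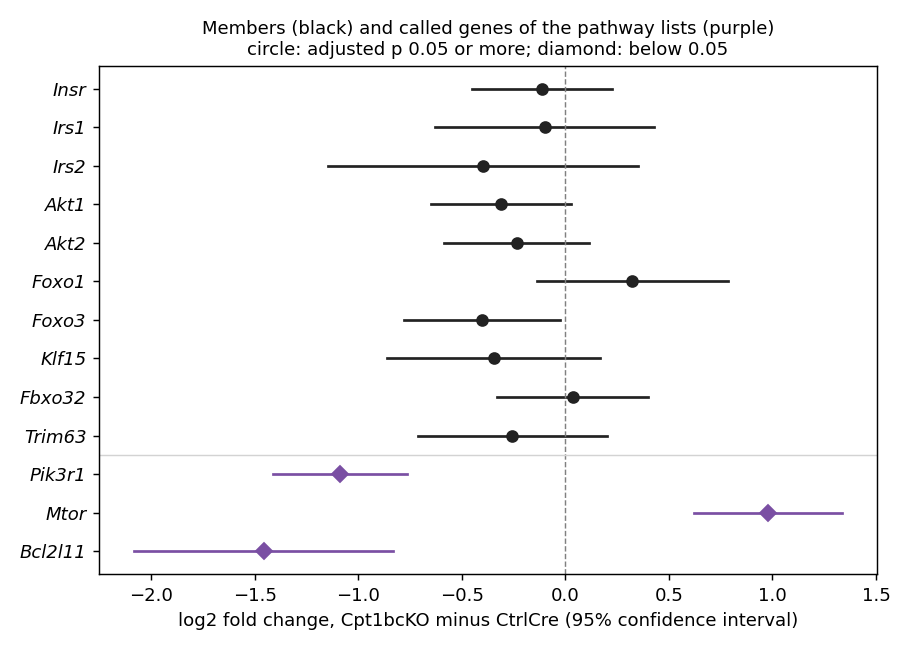
Log2 fold changes (horizontal axis, Cpt1bcKO minus CtrlCre) with 95% confidence intervals for the 10 members (black) and for the genes of the pathway lists with an adjusted p below 0.05 (purple diamonds). The interval of Foxo3, from −0.78 to −0.03, is the only member's that does not reach 0, and all members lie nearer to 0 than Pik3r1, Mtor and Bcl2l11.

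Compared per kilobase of exon in the GENCODE vM21 annotation, the members kept one order of mean level in both groups. In CtrlCre the highest were the ligases, Fbxo32 at 219 normalized counts per kilobase and Trim63 at 201, whose sample ranges of 178 to 242 and 165 to 257 overlapped. Insr followed at 131 (115 to 148) and Akt1 at 110 (102 to 116), again with overlapping ranges. Foxo3 at 86.3 (68.8 to 97.2) overlapped neither Akt1 nor Akt2, but it overlapped Irs2, whose range of 25.1 to 77.5 was widened by CtrlCre 1. Akt2 at 53.5, Irs2 at 45.2, Klf15 at 32.2 and Irs1 at 23.0 formed a chain in which each range overlapped the next. The place of Irs2 above Klf15 rests on CtrlCre 1, without which its mean in CtrlCre is below that of Klf15. Foxo1 was lowest at 10.7 (9.69 to 12.2), below every sample's value for Irs1. In Cpt1bcKO the means ran from 223 for Fbxo32 to 13.5 for Foxo1. The exon length of Insr is less certain, since the annotation places the end of the gene at 3122061 and the table at 3150922.

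Related members were also set against each other within each sample, which removes the scaling between samples. These 4 ratios were chosen after the values had been seen, and p-values are from exact two-sided permutation tests, which cannot go below 0.10, adjusted over the 4 pairs. The ratio of Foxo1 to Foxo3 was 0.114, 0.151 and 0.167 in CtrlCre and 0.185, 0.272 and 0.261 in Cpt1bcKO. Every Cpt1bcKO sample lay above every CtrlCre sample. Among single genes 18.7% had groups without overlap, and the share among ratios of gene pairs was not computed. The highest ratios were those of Cpt1bcKO 2 and 3, the libraries with the largest mt-Rnr2 shares, and the part of this in the ratios was not tested. The difference of the log2 ratios was 0.73, from −2.80 ± 0.28 to −2.07 ± 0.30 (SD, n = 3, exact p = 0.10, adjusted 0.40).

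The ratio of Fbxo32 to Trim63 was 2.26, 3.29 and 2.65 in CtrlCre and 3.65, 3.60 and 2.74 in Cpt1bcKO. The groups overlapped through CtrlCre 2 and Cpt1bcKO 3, with a log2 difference of 0.29 (exact p = 0.20, adjusted 0.40). Akt1 to Akt2 lay between 0.957 and 1.35 in all 6 samples, with a log2 difference of −0.07 (exact p = 0.80). Irs1 to Irs2 was 0.351 in CtrlCre 1 and between 0.856 and 1.30 in the other samples (exact p = 0.80).

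**Figure D3:**
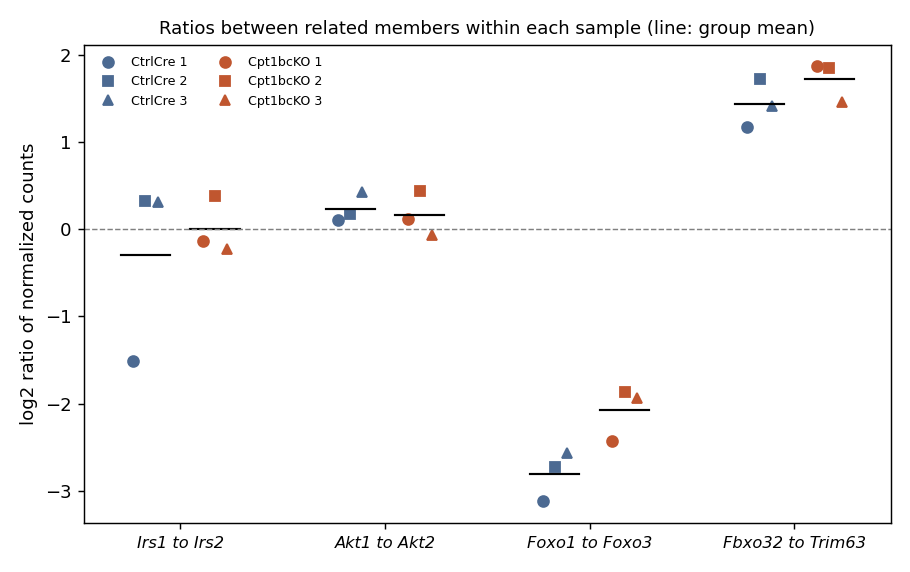
Log2 ratios of normalized counts (vertical axis) between related members in each CtrlCre (blue) and Cpt1bcKO (orange) sample, with lines at the group means. The Foxo1 to Foxo3 ratio is the only one of the 4 whose groups do not overlap, and CtrlCre 1 is the low point of Irs1 to Irs2.

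The rest of the pathway was read from 5 lists of other genes, 112 in all, of which 106 were tested. Among them 3 were called at an adjusted p below 0.05, 1 higher (against 0.660% of all genes) and 2 lower (against 0.906%). At an unadjusted p below 0.05, 10 were higher (6.66% of all genes) and 13 lower (7.22%). The median log2 fold change was −0.04, against 0.00 for all genes. When samples were scaled to their total outside mitochondrial-encoded and rRNA genes, 24 list genes had an unadjusted limma p below 0.05. Those that joined the count were all higher, and those that left it were all lower.

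Around the receptor, 21 genes were tested, 0 higher and 3 lower at an unadjusted p below 0.05, with a median of −0.06. Pik3r1, encoding the p85α regulatory subunit that binds IRS proteins and holds the PI3K catalytic subunit, fell. It was at 1621, 1631 and 1508 in CtrlCre and at 705, 671 and 879 in Cpt1bcKO, with no overlap. The log2 fold change was −1.09 ± 0.146 (SE, limma adjusted p = 0.00618), and without Cpt1bcKO 2 it was −1.01 (adjusted p = 0.0527).

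The other genes with an unadjusted p below 0.05 here, named after their values were seen, were the adaptor genes Grb10 and Gab1. Their log2 fold changes were −0.55 (limma adjusted p = 0.0928) and −0.61 (adjusted p = 0.198). Both had groups without overlap, but those of Gab1 overlapped with scaling to the total outside mitochondrial-encoded and rRNA genes. Pik3ca, the catalytic subunit p110α, had a log2 fold change of −0.20, and Pdpk1, the kinase that activates AKT, 0.00. The receptor for IGF1, Igf1r, was at 166, 184 and 180 in CtrlCre and at 195, 200 and 194 in Cpt1bcKO, every Cpt1bcKO sample above CtrlCre, with a log2 fold change of 0.15. Grb14, an adaptor that inhibits the insulin receptor, was at 1034, 852 and 1145 against 522, 612 and 1123, so that Cpt1bcKO 3 lay with CtrlCre, and its log2 fold change was −0.50, with −0.83 without Cpt1bcKO 3 and −0.27 without Cpt1bcKO 1. Adjusted p-values of these 4 genes were between 0.423 and 0.994 (limma).

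Of 25 tested genes around AKT and mTOR, 2 were higher and 1 lower at an unadjusted p below 0.05, with a median of −0.06. Mtor, encoding the kinase of the growth complexes mTORC1 and mTORC2, rose. It was at 380, 489 and 458 in CtrlCre and at 793, 1016 and 809 in Cpt1bcKO, well apart, a log2 fold change of 0.98 ± 0.161 (SE, limma adjusted p = 0.0151). The adjusted p was 0.0542 without CtrlCre 1, 0.0640 without CtrlCre 3 and 0.0991 without Cpt1bcKO 2, with log2 fold changes of 0.87, 1.01 and 0.86. Tsc2, whose product restrains mTORC1, had 0.23, the AKT substrate Gsk3b −0.14, the insulin-responsive glucose transporter Slc2a4 −0.21 and the mTORC1 inhibitor Ddit4 0.03, with adjusted p between 0.538 and 0.984 by limma. For Slc2a4 every Cpt1bcKO sample (726, 744 and 701) lay below every CtrlCre sample (830, 936 and 756). This separation was lost when samples were scaled to their total outside mitochondrial-encoded and rRNA genes (log2 fold change −0.10). Beside Mtor, the genes with an unadjusted p below 0.05 were Rps6kb2 (log2 fold change 0.63) and Trib2 (−0.57), named after their values were seen. Their limma adjusted p-values were 0.282 and 0.279.

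Among 21 tested FoxO family members and targets, 3 were higher and 5 lower at an unadjusted p below 0.05, with a median of −0.09. Bcl2l11, encoding the pro-apoptotic protein BIM, fell. It was at 64, 90 and 63 in CtrlCre and at 33, 26 and 19 in Cpt1bcKO, without overlap, with a log2 fold change of −1.46 ± 0.282 (SE, limma adjusted p = 0.0327). The adjusted p was 0.0737 without CtrlCre 1, 0.149 without CtrlCre 2, 0.0960 without CtrlCre 3, 0.135 without Cpt1bcKO 2 and 0.0724 without Cpt1bcKO 3, with log2 fold changes between −1.54 and −1.26. With scaling to the total outside mitochondrial-encoded and rRNA genes it was 0.0520.

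The other genes with an unadjusted p below 0.05 lay on both sides of 0. Named after their values were seen, the lower ones were Bnip3 (log2 fold change −0.99), Cited2 (−0.90), Txnip (−0.61) and the cell cycle inhibitor gene Cdkn1b (−0.61), and Sgk1 was higher (0.75), with limma adjusted p between 0.128 and 0.355. Pdk4, the kinase that shuts off pyruvate dehydrogenase, was at 5605, 3909 and 1573 in CtrlCre and at 21655, 8824 and 5458 in Cpt1bcKO, with overlapping groups and a log2 fold change of 1.64 (limma adjusted p = 0.179). The autophagy gene Gabarapl1 was at 292, 267 and 249 against 537, 361 and 364, every Cpt1bcKO sample higher, with a log2 fold change of 0.62 (adjusted p = 0.159). Foxo4 had a log2 fold change of −0.34, without overlap of the groups. With scaling to the total outside mitochondrial-encoded and rRNA genes its groups overlapped, and the log2 fold change was −0.22. The stress sensor Sesn1 had −0.25. The cell cycle inhibitor gene Cdkn1a was at 40, 31 and 46 in CtrlCre and at 103, 95 and 23 in Cpt1bcKO, so that Cpt1bcKO 3 was the lowest of all 6. Its log2 fold change was 0.65 (limma adjusted p = 0.595), and 1.34 without Cpt1bcKO 3 (adjusted p = 0.0424). It was 0.28 without Cpt1bcKO 1 and 0.34 without Cpt1bcKO 2.

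In the ubiquitin and proteolysis list, 23 genes were tested, 3 higher and 1 lower at an unadjusted p below 0.05, and 0 at an adjusted p below 0.05 by limma, with a median of 0.01. The MuRF relatives of Trim63 were Trim54 (MuRF3), at 308, 374 and 308 against 445, 450 and 405, and Trim55 (MuRF2), with log2 fold changes of 0.40 and 0.00. For Trim54 every Cpt1bcKO sample lay above every CtrlCre sample (adjusted p = 0.263), as for Fbxo30, at 227, 262 and 235 against 349, 283 and 424. The muscle F-box genes Fbxo30 and Fbxo40 had log2 fold changes of 0.53 and 0.28 and Cblb, a ligase that targets IRS1, 0.11, with limma adjusted p between 0.209 and 0.861. Beside Trim54 and Fbxo30, the genes with an unadjusted p below 0.05 were Ctsl (log2 fold change 0.80) and Nedd4 (−0.35), named after their values were seen. Both had groups without overlap, with limma adjusted p of 0.116 and 0.286.

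Of 17 tested genes linked to KLF15 and glucocorticoids, 2 were higher and 3 lower at an unadjusted p below 0.05 and 0 at an adjusted p below 0.05 by limma, with a median of −0.13. The glucocorticoid receptor gene Nr3c1 had a log2 fold change of −0.17, and its targets Fkbp5 −0.05, Per1 −0.25 and Tsc22d3 (GILZ) −0.70. Tsc22d3 was at 172, 142 and 216 in CtrlCre and at 114, 116 and 93 in Cpt1bcKO, with no overlap (adjusted p = 0.153). Bcat2, a KLF15 target that starts branched-chain amino acid breakdown, had 0.39 (adjusted p = 0.397). Named after their values were seen, the higher genes at an unadjusted p below 0.05 were Hsd17b11 (log2 fold change 1.77) and Angptl4 (1.74). Beside Tsc22d3, the lower ones were Hsd11b1 (−0.94) and Kcnip2 (−0.39). Limma adjusted p-values of the genes named in this way were between 0.196 and 0.355.

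**Figure D4:**
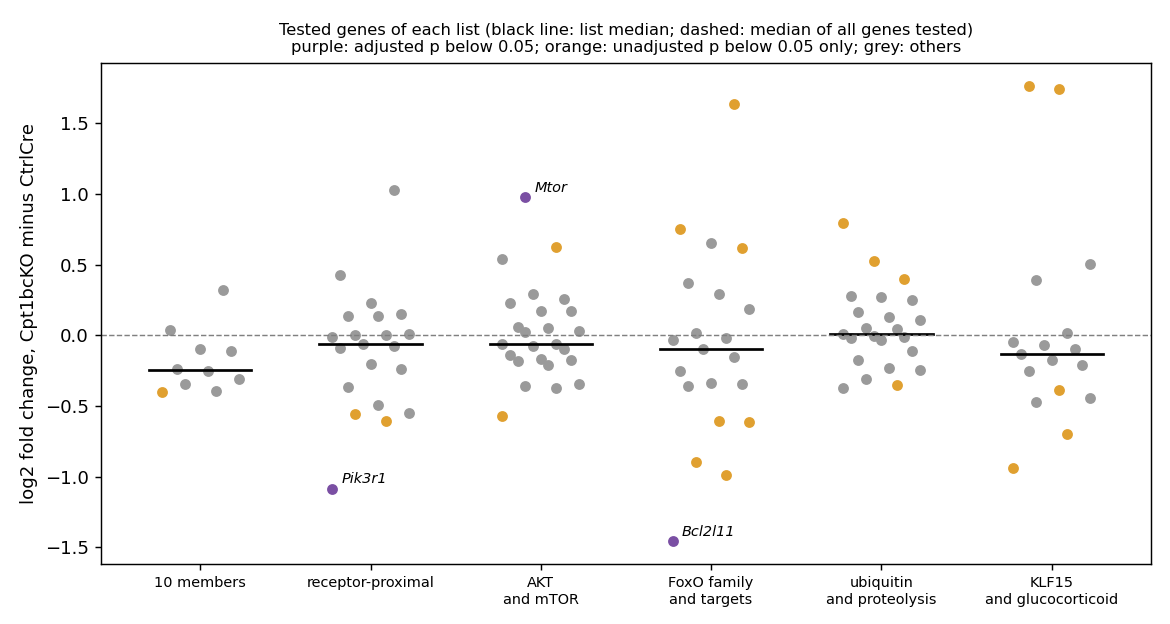
Log2 fold changes (vertical axis, Cpt1bcKO minus CtrlCre) of every tested gene of the members and of the 5 pathway lists, with black lines at list medians and a dashed line at the median of all genes. Of the 10 members 1 is orange (Foxo3, unadjusted p below 0.05 only) and none purple, while Pik3r1, Mtor and Bcl2l11 have an adjusted p below 0.05.

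Markers of other cells differed between the groups beside these results. Of 7 fibroblast markers 6 were tested, and all 6 had an unadjusted p below 0.05 towards Cpt1bcKO, against 6.66% of all genes. Of these, 2 (Col1a1 and Lum) had a limma adjusted p of 0.0143, where 0.66% of all genes were higher at an adjusted p below 0.05. Summed fibroblast marker levels were between 473 and 711 in CtrlCre and between 1011 and 1202 in Cpt1bcKO. The 8 cardiomyocyte markers had log2 fold changes between −0.996 and −0.222 with a median of −0.44. By limma 0 were called at an adjusted p below 0.05 and 2 at an unadjusted p below 0.05, against 0.906% and 7.22% of all genes towards lower values. In 4 of the 8 markers (Myh6, Actc1, Tnni3 and Pln) every Cpt1bcKO sample lay below every CtrlCre sample, against 9.6% of all genes. For Tnni3 this was lost with scaling to the total outside mitochondrial-encoded and rRNA genes. All 6 endothelial markers had log2 fold changes above 0, with a median of 0.27. Of these, 1 (Tie1) had an unadjusted limma p of 0.0239 and groups without overlap, against 6.66% and 9.13% of all genes towards higher values. Tie1 was at 65, 118 and 105 in CtrlCre and 140, 144 and 145 in Cpt1bcKO. Summed endothelial marker levels were 1221, 2296 and 2498 in CtrlCre 1, 2 and 3 and 2468, 2491 and 2132 in Cpt1bcKO 1, 2 and 3. Only CtrlCre 1 stood apart, and CtrlCre 2 and 3 lay at the Cpt1bcKO level. Leukocyte marker sums were between 91 and 158 in CtrlCre and between 125 and 136 in Cpt1bcKO. The part of these markers in the members' values was not tested.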

How the data were processed

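Total RNA of isolated adult CMs was made into libraries with a stranded total RNA kit. The submitters' processing notes name Trimmomatic 0.36, STAR 2.5.4b, featureCounts 1.6.0, DESeq2 1.14.1 and the build GRCm38.p5. The deposited values are a score: read counts that the authors divided by size factors and rounded to whole numbers. The study gives an average read number per library, but raw counts and the depth of each sample are unknown, and a count model was not used. In Cpt1bcKO 3 alone, the values 2, 7, 11, 15, 20, 24 and 29 did not occur among the whole numbers below 30. The part of this in the results was not tested. Columns with the authors' own means, fold changes and p-values were not used. Strand setting and annotation release are not given in the sources used here. The test took genes that reached 10 or more in 3 or more of the 6 samples. They were fitted with limma 3.58.1 (R 4.3.3; trended prior variance) on log2(value + 1), tested beforehand on simulated data, with Benjamini-Hochberg adjustment. Such fold changes understate differences of low genes. Groups came from the sample titles, with 3 samples each. Samples sharing a number were not treated as pairs.

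The members and gene lists were chosen with earlier results of these data known. Named genes were the 10 members, Cpt1b, a set of 26 anchor genes of the lists whatever their values (1 of which is not reported here), any other list gene with an adjusted p below 0.05 (Bcl2l11), and, for Foxo1, Fbxo32, Trim63 and Klf15, the 3 genes of highest Pearson r. A few list genes outside this rule are named where the text says that they were chosen after their values were seen, or because an alternative called them. Markers of cell types were also listed by name. Alternatives were 2 other scalings, 2 other filters, pseudocounts of 0.5 and 5, 1 prior variance for all genes, a replicate block, samples 2 and 3 only, and each sample left out. No sequence was read by coordinates.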

Additional observations from a re-analysis of the deposited data

How the results depend on the processing

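In all 15 alternatives 0 members were called at an adjusted p below 0.05 by limma, and the lowest adjusted p of any member lay between 0.147 and 0.648. At an unadjusted p below 0.05 the count of members was 0 with total scaling, with 1 prior variance and with samples 2 and 3 only, and 0 to 2 when each sample was left out. Members without overlap numbered 0 with total scaling, 4 with samples 2 and 3 only and 1 to 4 when each sample was left out, against 20.9%, 47.1% and 24.8% to 37.4% of all genes, since fewer samples overlap less often. With 1 prior variance 41 of all genes and 0 list genes were called and Cpt1b, at −2.27, had an adjusted p of 0.0563 (limma). Bnip3 was also called without Cpt1bcKO 1 and with samples 2 and 3 only. Leaving out each sample gave 42 (without Cpt1bcKO 2) to 329 (without Cpt1bcKO 1) of all genes and 0 to 4 list genes at an adjusted p below 0.05, and 1007 to 2262 and 14 to 23 at an unadjusted one. Samples with the same number correlated at 0.376, 0.255 and 0.068 in their deviations, both number 3 samples correlating better with a number 2 sample, so the numbers were not taken to pair the samples. Both number 1 samples were rich in Xist. With a replicate block 603 of all genes, 11 list genes and 0 members were called, of which Angptl4, Ctsl, Gab1, Gabarapl1 (adjusted p = 0.0270), Grb10, Hsd17b11 and Pdk4 (0.000435) were called in no other setting, and 2 members (Akt1 and Foxo3) had an unadjusted p below 0.05. Directions turned with total scaling for Irs1 (0.012), Fkbp5 (0.060) and Trim55 (0.108), and with samples 2 and 3 only for Irs2 (0.079), Ddit4 (−0.249) and Trim55 (0.183). Trim55 was at −0.004 in the fit reported and 0.002 with recomputed median ratios. Leave-one-out ranges crossed 0 for Irs1 (−0.335 to 0.068), Irs2 (−0.732 to 0.077), Fbxo32 (−0.11 to 0.12), Ddit4 (−0.18 to 0.42), Cblb (−0.034 to 0.215), Fkbp5 (−0.13 to 0.12), Pdpk1 (−0.12 to 0.12) and Trim55 (−0.17 to 0.15), and for the log2 ratio differences of Irs1 to Irs2 (−0.31 to 0.60) and Akt1 to Akt2 (−0.211 to 0.038). They kept one sign for Insr (−0.207 to −0.010), Akt2 (−0.324 to −0.139), Trim63 (−0.389 to −0.063), Gsk3b (−0.189 to −0.061), Nr3c1 (−0.251 to −0.075) and Sesn1 (−0.368 to −0.117). The causes were not tested. The depth of each sample is unknown, and with 3 samples a group only large differences between the groups could be told from 0.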

Other observations

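The genes whose values tracked 4 of the members most closely were sought by Pearson r of log2(value + 1) over the 6 samples among the 6797 genes whose mean was 50 or higher. For Foxo1 they were Gm37238 (r = 0.997), Col4a5, a basement membrane collagen (0.993), and mt-Nd6, a mitochondrial-encoded subunit of complex I (0.992). For Fbxo32 they were Fam96b (0.977), Usp10 (0.973) and Naf1 (0.967). Trim63 was closest to Haus2 (0.988), the potassium channel gene Kcnj12 (0.986) and Art1 (0.974), and Klf15 to Wdr45b (0.992), Cmbl (0.991) and Ppp4r2 (0.990). These are the highest of many genes over few samples and describe likeness only.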
